A study of Homo sapiens with 6 samples.

Results

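The transcripts described here encode the proteins that take up glucose, break it down to pyruvate and lactate, divert it into the pentose phosphate pathway and set the response to low oxygen through hypoxia-inducible factor (HIF). They were listed by name, as 39 gene symbols, by a rule that uses no measured value, although earlier results of these data were known when the list was made. The symbols were found on 40 of the 58395 gene rows in each count file, because ALDOA stands on 2 rows. All 40 rows passed the filter on low counts.

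The data come from 6 samples of THP-1, an established human acute monocytic leukaemia cell line, grown in RPMI 1640 medium with 10% fetal bovine serum and added glutamine. In the untreated group, 3 samples had no exposure, with no vehicle named in the labels, and in the monensin group 3 samples had 1 µM monensin for 16 h. Monensin is an ionophore that exchanges sodium ions for protons across membranes. All come from the same line, so the comparison describes this leukaemia line and not blood monocytes, and any effect of a solvent and that of monensin cannot be told apart. RNA was read as single 75 nt reads from directional libraries, with gene counts between 22975888 and 25710513 per library. The labelled cell type was checked on 10 monocytic markers, of which all 10 reached 1 CPM (a gene's counts scaled to 1000000 counts in the library) in at least one group, with a summed level of 2341 to 2425 CPM in the untreated and 2199 to 2274 CPM in the monensin libraries. The sum joins markers with a lower mean after monensin, such as LYZ (791 CPM, then 292 CPM), and markers with a higher one, such as CEBPA (499 CPM, then 799 CPM). CD14 was the low one, at 0.480 and 2.37 CPM. Markers of erythroid and epithelial cells had 0 counts in every library, and the 3 T cell markers summed to at most 0.0428 CPM. The 3 fibroblast markers summed to 1.93 to 2.77 CPM in untreated and 3.08 to 3.51 CPM in monensin libraries. The part of other cells in the results was not tested.

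Glycolysis turns glucose into pyruvate in the cytosol. Its upper part, from hexokinase to triosephosphate isomerase, spends ATP, and its lower part, from GAPDH to pyruvate kinase, returns it. Lactate dehydrogenase then regenerates NAD+ by making lactate, unless pyruvate enters mitochondria, a step that the pyruvate dehydrogenase kinases (PDK) restrain. The pentose phosphate pathway branches off at glucose 6-phosphate and yields NADPH and ribose 5-phosphate. HIF-1, a dimer whose oxygen-regulated subunit is encoded by HIF1A, raises many glycolytic genes in low oxygen by binding a core of ACGTG or GCGTG. When oxygen is present, the prolyl hydroxylases of the EGLN genes mark that subunit for degradation. Leukaemia lines in culture generally run a high rate of glycolysis.

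Because many of these genes are known HIF targets, their promoters are shown before their values, with matches to the HIF core in capitals. Promoter windows of 250 bases before the start site were taken from RefSeq on GRCh38.p14, and 35 of the 39 symbols matched; SLC2A3, PFKFB2, SLC16A1 and BNIP3L are named only. The windows below are those of LDHA (chr11:18394313-18394562 on the plus strand) and BNIP3 (chr10:131981924-131982173 on the minus strand), which were lower with monensin, ALDOC (chr17:28576896-28577145 on the minus strand) and PFKFB4 (chr3:48556804-48557053 on the minus strand), which were higher, and ANKRD37 (chr4:185396591-185396840 on the plus strand), which was not called. Each runs 5′ to 3′, and capitals mark ACGTG or GCGTG on either strand; the palindrome CACGTG holds ACGTG on both strands and counts as 2 matches.
LDHA: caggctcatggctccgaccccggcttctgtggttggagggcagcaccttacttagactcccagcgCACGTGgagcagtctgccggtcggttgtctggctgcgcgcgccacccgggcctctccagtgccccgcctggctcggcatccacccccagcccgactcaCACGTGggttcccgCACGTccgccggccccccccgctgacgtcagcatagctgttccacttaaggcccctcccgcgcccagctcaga
BNIP3: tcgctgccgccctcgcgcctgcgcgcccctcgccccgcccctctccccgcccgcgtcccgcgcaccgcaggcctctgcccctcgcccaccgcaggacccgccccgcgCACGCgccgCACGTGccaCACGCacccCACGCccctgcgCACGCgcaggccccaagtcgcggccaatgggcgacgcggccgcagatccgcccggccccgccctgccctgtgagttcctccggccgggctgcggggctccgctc
ALDOC: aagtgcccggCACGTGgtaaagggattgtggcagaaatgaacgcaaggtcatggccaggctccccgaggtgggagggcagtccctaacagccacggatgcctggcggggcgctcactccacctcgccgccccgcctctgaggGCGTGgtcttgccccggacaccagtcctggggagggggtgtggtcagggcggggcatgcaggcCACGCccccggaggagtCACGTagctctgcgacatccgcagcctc
PFKFB4: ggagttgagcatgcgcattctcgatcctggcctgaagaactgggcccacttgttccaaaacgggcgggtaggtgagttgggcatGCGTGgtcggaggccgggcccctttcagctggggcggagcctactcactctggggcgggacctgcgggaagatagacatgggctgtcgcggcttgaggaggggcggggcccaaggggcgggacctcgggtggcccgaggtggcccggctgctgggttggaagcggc
ANKRD37: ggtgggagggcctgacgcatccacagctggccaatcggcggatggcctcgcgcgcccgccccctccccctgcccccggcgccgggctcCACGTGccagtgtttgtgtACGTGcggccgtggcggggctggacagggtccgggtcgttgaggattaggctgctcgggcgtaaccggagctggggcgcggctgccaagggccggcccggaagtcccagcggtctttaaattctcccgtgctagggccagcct
LDHA held 5 matches, BNIP3 6, ALDOC 5, ANKRD37 3 and PFKFB4 1. Among all 27305 promoter windows of this length, 43.1% held at least 1 match, against 20 of the 35 matched members. With ALDOA left out, 7 of 11 raised, 8 of 15 lowered and 4 of 8 uncalled members held the core. The E-box CACGTG, which overlaps this core and is read by many other factors, was in 6.49% of all windows and in 6 of the 35. The letters TGATGNAA, which stand for the element bound by ATF4 with a C/EBP partner, were in 3.19% of all windows and, among the 35, in HK1 alone. A match is a run of letters and was not tested as a binding site.

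Monensin moved the members in both directions. By edgeR's quasi-likelihood test at an adjusted p under 0.05, 15 of the 40 rows were raised and 16 lowered, against 34.1% raised and 33.7% lowered among all 16542 genes tested, so neither count stands clear of the background. Calls in either direction made up 31 of the 40 rows and 67.8% of all genes. The median log2 fold change was -0.05, against 0.02 over all genes tested. The libraries of the groups did not overlap for 32 of the 40 rows, against 71.1% of all genes. Called changes of at least 2-fold were 4 raised rows, SLC2A3, PFKFB4, ENO2 and BNIP3L, and 0 lowered ones, against 9.41% and 3.83% of all genes. Of the 40 member rows, 5 stand in the authors' deposited table of 2410 regulated genes, to be set beside the 16542 genes tested here. The smallest change in that table is 1.00 in size on the log2 scale, so only changes of at least 2-fold stand in it. The log2 fold changes given in the authors' deposited table are 1.44 for SLC2A3, 1.75 for PFKFB4, 1.74 for ENO2, 1.36 for BNIP3L and -1.01 for LDHA. In the fit used here LDHA was at -0.98, just short of 2-fold. All values that follow are from the counts.

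**Figure D1:**
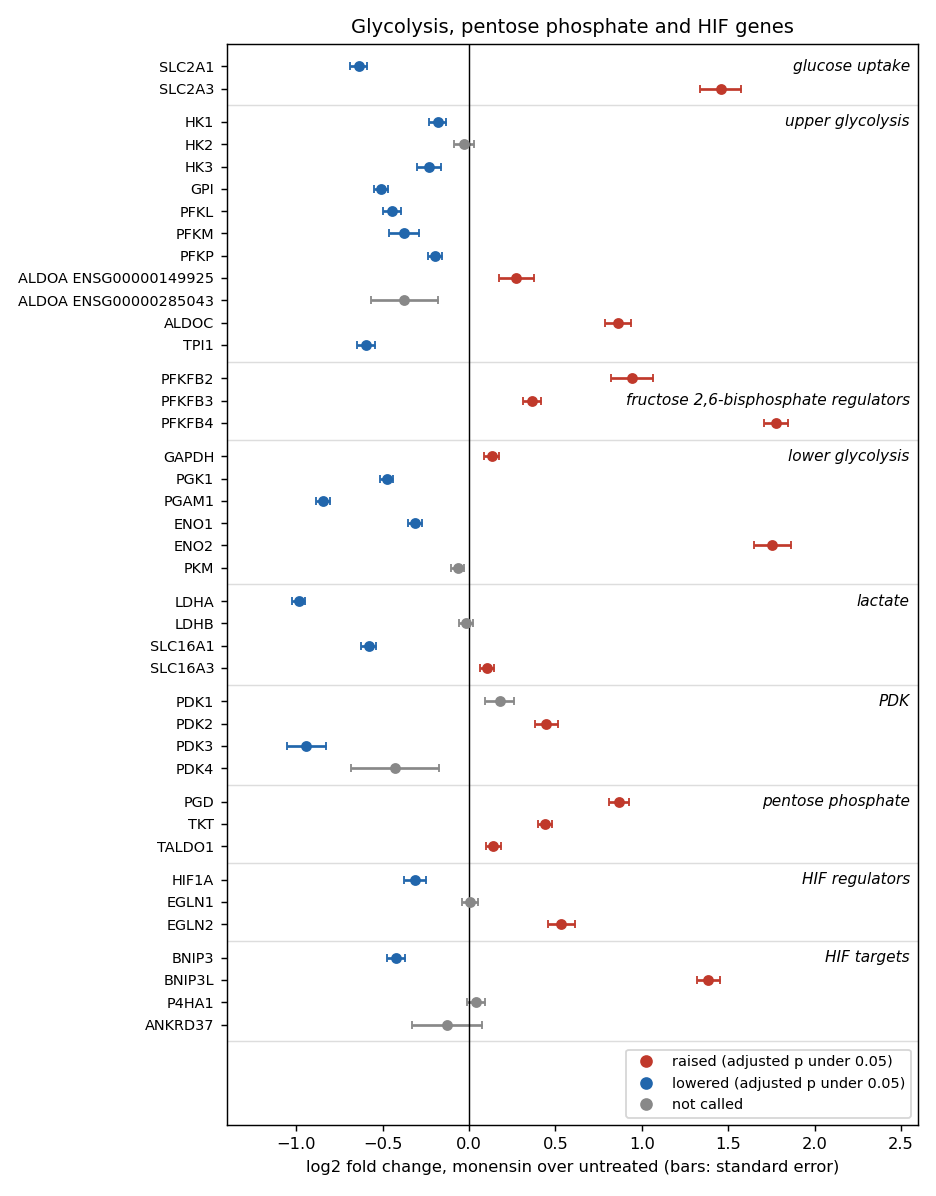
Log2 fold change of each member row, monensin over untreated, with its standard error, grouped by role; red rows were raised, blue rows lowered and grey rows not called at an adjusted p under 0.05. Changes run from -0.98 for LDHA to 1.77 for PFKFB4, with the 3 pentose phosphate genes and the 3 PFKFB genes all to the right of 0.

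Of the glucose carriers, the main one fell and the minor one rose. SLC2A1, which encodes the carrier GLUT1, stood at 209, 211 and 191 CPM without exposure and at 126, 133 and 133 CPM after monensin. Every monensin library lay below every untreated one (log2 fold change -0.64, SE 0.05, adjusted p = 1.06e-08). SLC2A3, which encodes GLUT3, a carrier of high affinity, stood at 3.77, 3.77 and 3.20 CPM and then at 11.1, 8.80 and 9.51 CPM. The groups did not overlap, and the log2 fold change was 1.46 (SE 0.12, adjusted p = 2.81e-08). Counts per kilobase of exon, which allow genes of different length to be set side by side, put SLC2A1 74.3 ± 3.06 times above SLC2A3 in untreated and 17.6 ± 2.59 times above it in monensin libraries (mean ± SD, n = 3). The larger carrier message thus remained SLC2A1 in all 6 libraries.

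In upper glycolysis, 7 of 11 rows fell and 2 rose, against 33.7% lowered and 34.1% raised among all genes tested. Without the 2 ALDOA rows, 7 of 9 fell and 1 rose. Hexokinases trap glucose in the cell. HK1 had 97.8, 97.7 and 104 CPM untreated and 89.0, 85.0 and 90.3 CPM with monensin (log2 fold change -0.18, SE 0.05, adjusted p = 0.00293). HK3 had 18.8 to 21.4 CPM untreated and 16.8 to 18.0 CPM with monensin (log2 fold change -0.23, SE 0.07, adjusted p = 0.00763). Both calls were lost under scaling to total counts (adjusted p = 0.0816 for HK1 and 0.0736 for HK3). HK2, the isoenzyme often raised in tumours, had 54.9, 56.7 and 56.4 CPM and 56.9, 57.4 and 50.2 CPM, so its groups overlapped (log2 fold change -0.03, SE 0.06, adjusted p = 0.662).

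GPI, which turns glucose 6-phosphate into fructose 6-phosphate, had 425, 425 and 412 CPM untreated and 293, 284 and 310 CPM with monensin (log2 fold change -0.51, SE 0.04, adjusted p = 3.07e-08). All 3 subunit genes of phosphofructokinase, the committed step of glycolysis, fell without overlap of the groups. Among all genes tested, 33.7% were lowered and 71.1% had groups that did not overlap. PFKL, the liver type, went from 221, 213 and 233 CPM to 160, 155 and 176 CPM (log2 fold change -0.44, SE 0.05). PFKP, the platelet type, went from 215, 208 and 214 CPM to 186, 183 and 187 CPM, a change of -0.20 (SE 0.04). PFKM, the muscle type, was scarce at 8.58 to 9.14 CPM untreated and 6.64 to 7.09 CPM with monensin (log2 fold change -0.37, SE 0.09). Of its exonic length, 8.58% lies opposite another gene's exons, those of SENP1. SENP1 counts also fell, from 606, 589 and 652 to 409, 385 and 365, beside PFKM counts of 214, 212 and 226 and then 182, 166 and 162. The strand setting of the counting is not known, so how far the shared part enters the PFKM counts is uncertain. TPI1, triosephosphate isomerase, showed the largest fall of the upper enzymes, from 291, 282 and 270 CPM to 173, 183 and 201 CPM (log2 fold change -0.60, SE 0.05, adjusted p = 7.52e-08).

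Aldolase splits fructose 1,6-bisphosphate into triose phosphates, and its brain-type gene ALDOC rose while ALDOA could not be read with confidence. ALDOC had 14.7, 16.4 and 15.1 CPM untreated and 25.2, 29.4 and 29.3 CPM with monensin (log2 fold change 0.86, SE 0.08, adjusted p = 6.47e-08). ALDOA, the main aldolase of most dividing cells, is annotated as overlapping genes on chromosome 16, and 42.3% of the exonic length of ENSG00000149925 and 49.2% of that of ENSG00000285043 are shared with a gene on the same strand, here the other ALDOA row. Reads that fall on shared exons are ambiguous in gene counting, and ambiguous reads made up 2.98% ± 0.0175 of all tallied alignments in untreated and 3.00% ± 0.0620 in monensin libraries. The ENSG00000149925 row held 141, 150 and 162 counts untreated and 183, 182 and 190 counts with monensin (log2 fold change 0.27, SE 0.10, adjusted p = 0.0258). Its call was lost under 6 alternatives, with adjusted p from 0.0617 to 0.230 under those that kept the threshold of 0.05. The ENSG00000285043 row held 45, 42 and 60 counts and then 44, 37 and 34 (log2 fold change -0.37, SE 0.19, adjusted p = 0.0969), and among the 15 alternatives it was called lower with 1, GC content and length trends removed (log2 fold change -0.60, adjusted p = 0.0119). The rows therefore point in opposite directions at low counts, and the level of ALDOA as a whole was not measured by them.

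All 3 PFKFB genes rose, against 34.1% raised among all genes tested. The PFKFB genes encode bifunctional enzymes that make or remove fructose 2,6-bisphosphate, the strongest activator of phosphofructokinase. PFKFB4 went from 10.1, 11.1 and 11.5 CPM to 35.9, 36.4 and 39.6 CPM, and no untreated library came near a monensin one (log2 fold change 1.77, SE 0.07, adjusted p = 7e-12). PFKFB2, the heart type, went from 3.57, 3.77 and 4.29 CPM to 7.87, 7.96 and 6.51 CPM (log2 fold change 0.94, SE 0.12, adjusted p = 4e-06). PFKFB3, whose product strongly favours synthesis, went from 52.5, 51.3 and 50.2 CPM to 67.1, 68.1 and 62.9 CPM (log2 fold change 0.36, SE 0.05, adjusted p = 1.09e-05). Per kilobase, PFKFB3 stood 4.72 ± 0.426 times above PFKFB4 in untreated libraries and 1.77 ± 0.162 times above it with monensin. The 3 PFKFB genes and the 3 phosphofructokinase genes moved in opposite directions in these libraries.

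**Figure D2:**
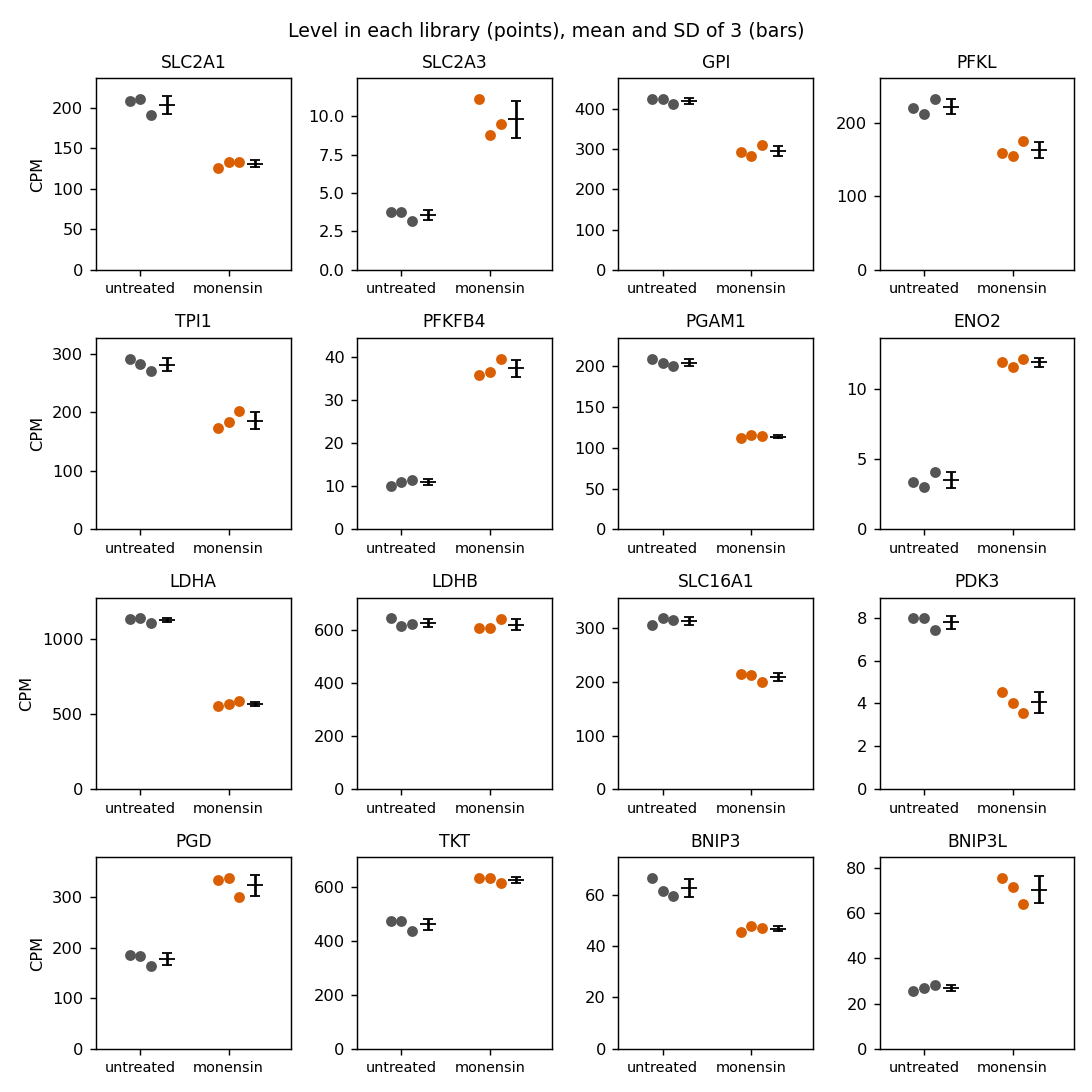
Level of 16 members in each library, in CPM on axes that start at 0 (grey, untreated; orange, monensin), with mean and SD of 3 libraries beside the points. The groups do not overlap for 15 of the 16 genes and do overlap for LDHB. The 16 are a selection, so this count is not a share of the members. Over all member rows the groups did not overlap for 32 of 40, against 71.1% of all genes tested.

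In lower glycolysis, 3 of 6 genes fell, 2 rose and PKM was not called, against 33.7% lowered and 34.1% raised among all genes tested. PGK1, which makes the pathway's earlier ATP, had 869, 858 and 855 CPM untreated and 613, 612 and 631 CPM with monensin (log2 fold change -0.48, SE 0.04, adjusted p = 1.18e-08). PGAM1, phosphoglycerate mutase, had 209, 204 and 200.5 CPM and then 112, 116 and 114 CPM (log2 fold change -0.84, SE 0.04, adjusted p = 7.81e-11). ENO1, the common enolase, had 1848, 1861 and 1794 CPM and then 1439, 1449 and 1541 CPM (log2 fold change -0.31, SE 0.04, adjusted p = 2.86e-06). In each of these genes the groups were fully apart, as they were in 71.1% of all genes tested.

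ENO2, the neuronal enolase, moved the other way, from 3.41, 3.00 and 4.13 CPM to 11.96, 11.6 and 12.2 CPM (log2 fold change 1.76, SE 0.11, adjusted p = 1.17e-09). Per kilobase it came to 0.00237 ± 0.000431 of ENO1 in untreated and 0.00993 ± 0.000273 in monensin libraries, so the enolase message remained almost wholly ENO1. PKM, the pyruvate kinase gene, had 1329, 1335 and 1308 CPM and 1240, 1237 and 1322 CPM (log2 fold change -0.06, SE 0.04, adjusted p = 0.147). Its groups overlapped through monensin library 3, and without that library it was called lower (log2 fold change -0.10, adjusted p = 0.0210), as it was with the trends of GC content and length removed (log2 fold change -0.13). GAPDH, often used as a reference gene, had 1668, 1651 and 1544 CPM untreated and 1704, 1746 and 1878 CPM with monensin (log2 fold change 0.13, SE 0.04, adjusted p = 0.0149). That call was lost when library 3 of either group was left out (adjusted p = 0.103 for the untreated one and 0.0628 for the monensin one), and the direction turned with GC content and length trends removed (log2 fold change -0.08, adjusted p = 0.0583). GAPDH shares 14.2% of its exonic length with an antisense gene. That gene held 112, 183 and 120 counts untreated and 231, 281 and 20 with monensin, so it was lowest in monensin library 3, where GAPDH was highest. Whether these are linked was not tested. In addition, 62 annotated pseudogenes carry the name of GAPDH, and their counts summed to 0.757% of its own in untreated and 0.716% in monensin libraries.

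The upper and lower enzymes together made up 0.707%, 0.699% and 0.687% of all gene counts without exposure, and 0.636%, 0.639% and 0.668% with monensin. The groups did not overlap, and an exact permutation test, two-sided, gave p = 0.10, the smallest value that 3 against 3 libraries allow. Of the 17 enzyme rows, 10 fell and 4 rose, against 33.7% lowered and 34.1% raised among all genes tested. The rows that rose were ENO2, ALDOC, GAPDH and ALDOA ENSG00000149925, and the calls of the last 2 were lost under several alternatives, as given above.

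Among the lactate genes, LDHA and SLC16A1 fell while their partners stayed near their untreated level. LDHA, which encodes the M subunit that favours lactate formation, had 1137, 1140 and 1111 CPM untreated and 557, 569 and 585 CPM with monensin. All 3 monensin libraries lay far below the untreated ones (log2 fold change -0.98, SE 0.04, adjusted p = 4.17e-12), which is the lowest change among the members. LDHB, which encodes the H subunit, had 643, 615 and 621 CPM and 607, 606 and 641 CPM (log2 fold change -0.02, SE 0.04, adjusted p = 0.687). Per kilobase, the LDHA to LDHB ratio was 0.849, 0.891 and 0.859 in untreated and 0.441, 0.451 and 0.438 in monensin libraries. Counts of the 6 annotated LDHA pseudogenes fell beside it, from 3357 to 1553 summed over 3 libraries, and came to 4.07% and 3.68% of LDHA counts.

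SLC16A1 encodes MCT1, a monocarboxylate carrier that moves lactate and pyruvate with protons, and it went from 306, 319 and 316 CPM to 215, 212 and 200.3 CPM (log2 fold change -0.58, SE 0.04, adjusted p = 6.45e-09). SLC16A3 encodes MCT4, the carrier of strongly glycolytic cells, and it had 252, 239 and 256 CPM untreated and 262, 269 and 271 CPM with monensin (log2 fold change 0.10, SE 0.04, adjusted p = 0.0375). The SLC16A3 call was lost under 9 alternatives, among them DESeq2 (adjusted p = 0.0595) and no filter (adjusted p = 0.173), and its direction turned with GC content and length trends removed (log2 fold change -0.06, adjusted p = 0.131). The ratio of SLC16A1 to SLC16A3 per kilobase was 2.13 ± 0.109 in untreated and 1.33 ± 0.0717 in monensin libraries.

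The kinases that switch off pyruvate dehydrogenase did not move together. PDK2, the most abundant of them per kilobase, went from 21.2, 22.3 and 22.7 CPM to 30.9, 27.8 and 31.7 CPM (log2 fold change 0.45, SE 0.07, adjusted p = 1.81e-05). The exons of SAMD14 lie opposite 38.6% of the exonic length of PDK2. SAMD14 counts also went from 31, 25 and 30 to 79, 78 and 72, beside PDK2 counts of 528, 521 and 561 and then 794, 694 and 739. The sources used here do not say whether counting kept the strands apart. If it did not, reads on the shared part would be ambiguous, so how far that part enters the PDK2 counts is uncertain. PDK3 fell from 7.98, 7.98 and 7.44 CPM to 4.56, 4.04 and 3.56 CPM (log2 fold change -0.94, SE 0.11, adjusted p = 1.91e-06). PDK1, a HIF target, had 10.4, 11.4 and 12.6 CPM and 13.2, 13.4 and 12.3 CPM (log2 fold change 0.18, SE 0.08, adjusted p = 0.0724). PDK1 was called higher under 5 alternatives, with log2 fold changes from 0.20 to 0.44: total counts, the stricter filter, the removal of GC and length trends, and without untreated library 3 or monensin library 3. PDK4 was near the limit of the filter, with 29, 38 and 27 counts untreated and 30, 25 and 16 with monensin (log2 fold change -0.43, SE 0.25, adjusted p = 0.145).

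All 3 pentose phosphate members rose, against 34.1% raised among all genes tested. PGD, 6-phosphogluconate dehydrogenase, which makes NADPH in the oxidative branch, went from 185, 184 and 163 CPM to 333, 338 and 299 CPM. All monensin libraries lay far above the untreated ones (log2 fold change 0.87, SE 0.06, adjusted p = 1.81e-09). TKT, transketolase, links the non-oxidative branch back to glycolysis, and it went from 472, 473 and 437 CPM to 632, 630 and 613 CPM (log2 fold change 0.44, SE 0.04, adjusted p = 1.44e-07). TALDO1, transaldolase, rose least, from 356, 348 and 319 CPM to 378, 375 and 375 CPM (log2 fold change 0.14, SE 0.04, adjusted p = 0.00999). Its call was lost without untreated library 3 (adjusted p = 0.0942), and its direction turned with GC content and length trends removed (log2 fold change -0.05, adjusted p = 0.301). In the untreated group, library 3 was the lowest of 3 for each of these genes. Their summed share of gene counts was 0.0949% ± 0.00473 without and 0.136% ± 0.00473 with monensin (exact permutation test, two-sided, p = 0.10).

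HIF1A and its hydroxylases gave a mixed picture. HIF1A had 78.2, 86.5 and 81.4 CPM untreated and 71.1, 67.9 and 58.9 CPM with monensin (log2 fold change -0.31, SE 0.06, adjusted p = 0.000459), a call that did not hold once GC and length trends were removed (log2 fold change -0.11, adjusted p = 0.0571). EGLN1, the main hydroxylase in normal oxygen, had 138, 144 and 139 CPM and 144, 145 and 133 CPM (log2 fold change 0.00, SE 0.05, adjusted p = 0.945), and it was called higher with the GC content and length trends removed (log2 fold change 0.14, adjusted p = 0.00222). EGLN2 rose from 11.3, 9.78 and 11.9 CPM to 16.1, 16.0 and 15.7 CPM (log2 fold change 0.53, SE 0.08, adjusted p = 2.31e-05), and 30.6% of its exonic length overlaps other genes on the same strand, chiefly the RAB4B-EGLN2 readthrough gene, which had 0 counts in all libraries. HIF is set mainly by the stability of its protein, which was not measured here.

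The 4 HIF target genes moved apart. BNIP3L, a receptor that marks mitochondria for autophagy, rose from 25.5, 27.0 and 28.3 CPM to 75.5, 71.5 and 64.0 CPM (log2 fold change 1.38, SE 0.07, adjusted p = 6.27e-11). PNMA2, whose exons lie opposite part of BNIP3L, went from 6, 12 and 8 counts to 192, 147 and 114, against 1938, 1787 and 1494 counts of BNIP3L in the monensin libraries. BNIP3, its close relative and a better known HIF target, fell from 66.6, 61.6 and 59.7 CPM to 45.7, 47.7 and 46.9 CPM (log2 fold change -0.42, SE 0.05, adjusted p = 4.31e-06). The BNIP3 to BNIP3L ratio per kilobase crossed 1, from 2.11, 1.84 and 1.71 to 0.489, 0.540 and 0.593. P4HA1, a collagen prolyl hydroxylase subunit, went from 70.5 ± 3.49 CPM untreated to 72.5 ± 2.81 CPM with monensin without a call (adjusted p = 0.497). Total counts (log2 fold change 0.13, adjusted p = 0.0449) and the removal of GC and length trends (0.19, adjusted p = 0.00209) each made it a called rise. ANKRD37, one of the most HIF-dependent transcripts in many cells, had 42, 47 and 37 counts untreated and 40, 33 and 44 with monensin (log2 fold change -0.13, SE 0.20, adjusted p = 0.595); UFSP2 lies opposite 35.2% of its exonic length.

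Related members were also compared as ratios within each library, over 15 pairs of genes with the same reaction or role. These ratios recombine the member counts given above and add no independent support. For single genes, the groups did not overlap in 71.1% of all genes tested, and the share over other gene pairs was not computed. For 12 pairs the untreated and monensin libraries did not overlap, or 11 without ALDOC over ALDOA, whose lower gene was read from the ENSG00000149925 row alone and is uncertain, and each gave an exact permutation p of 0.10, two-sided, or 0.125 after Benjamini-Hochberg adjustment over the 15 pairs; 0.10 is the smallest p the design allows, so no pair can pass 0.05. On the log2 scale, the ratio fell by 2.09 for SLC2A1 over SLC2A3, by 1.80 for BNIP3 over BNIP3L, by 1.41 for PFKFB3 over PFKFB4, by 1.13 for PDK3 over PDK1 and by 0.97 for LDHA over LDHB. It rose by 2.09 for ENO2 over ENO1. The hexokinase pairs HK1/HK2 and HK3/HK2 and the pair PFKL/PFKM overlapped, with log2 differences of -0.15, -0.20 and -0.07.

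**Figure D3:**
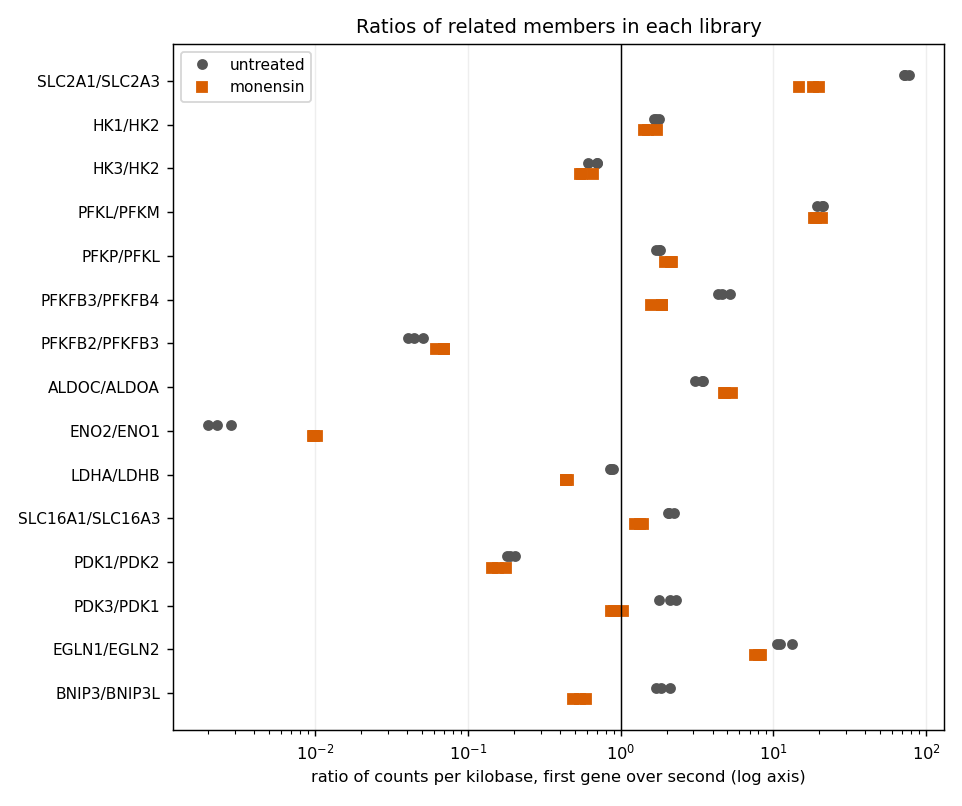
Ratio of counts per kilobase for 15 pairs of related members in each library, on a log axis (grey circles, untreated; orange squares, monensin). The groups are apart for 12 pairs and overlap for HK1/HK2, HK3/HK2 and PFKL/PFKM.

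Further genes of the same pathways, on 6 lists that hold no member, were read from the same fit. Of 73 listed genes, 55 were tested, and 25 rose and 25 fell, against 34.1% raised and 33.7% lowered over all genes tested. Among sugar uptake and upper glycolysis genes, 2 of 10 tested rose and 4 fell (median log2 fold change -0.11). The hexose carrier gene SLC2A6 rose from 14.3 ± 1.51 to 30.7 ± 1.40 CPM, while PGM2L1 (log2 fold change -1.13, SE 0.13) and PGM2 (-0.71, SE 0.04), both of the phosphohexomutase family, fell. TIGAR, which removes fructose 2,6-bisphosphate, fell from 8.35 ± 0.827 to 5.65 ± 0.237 CPM. Among lower glycolysis and lactate genes, 3 of 5 tested rose and 2 fell. The carrier gene SLC16A7, which encodes MCT2, fell by 0.95 on the log2 scale (SE 0.07), the enolase gene ENO3 rose by 0.73 (SE 0.10), and LDHD, which oxidises D-lactate, rose by 0.78 (SE 0.11). The other gene called higher was BSG, which encodes a chaperone of the lactate carriers (log2 fold change 0.12, adjusted p = 0.0174). After the removal of GC and length trends BSG was called lower instead (log2 fold change -0.10, adjusted p = 0.0167). BPGM, which makes 2,3-bisphosphoglycerate, fell by 0.27 (SE 0.07).

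Genes for pyruvate entry into mitochondria fell in 8 of 10 cases and rose in 2 (median log2 fold change -0.36), against 33.7% lowered and 34.1% raised over all genes. With GC content and length trends removed 6 fell, and under total counts 7. DLAT, the acetyltransferase subunit of pyruvate dehydrogenase, went from 93.6 ± 3.95 to 51.8 ± 1.61 CPM, and DLD, its dehydrogenase subunit, from 157 ± 1.83 to 108 ± 2.05 CPM. PDPR, a regulator of the pyruvate dehydrogenase phosphatase, fell by 0.43 on the log2 scale (SE 0.05). The subunits of the mitochondrial pyruvate carrier parted: MPC2 fell by 0.40 (SE 0.06) and MPC1 rose by 0.31 (SE 0.05). The other gene that rose was PDP2, a pyruvate dehydrogenase phosphatase (log2 fold change 0.22, SE 0.06).

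Of the further pentose phosphate genes 5 of 9 fell and 3 rose (median -0.38), against 33.7% lowered and 34.1% raised over all genes. PRPS1 and PRPS2, which turn ribose 5-phosphate into the nucleotide precursor PRPP, fell by 0.83 (SE 0.05) and 0.62 (SE 0.05) on the log2 scale, and DERA, deoxyribose-phosphate aldolase, by 0.66 (SE 0.07). RPIA and RPE, which interconvert the pentose phosphates, were the others that fell (log2 fold changes -0.50 and -0.38). TKTL1, a transketolase relative, rose from 45.0 ± 1.90 to 67.1 ± 4.34 CPM, and PGLS and H6PD of the oxidative branch rose by 0.37 and 0.19. H6PD no longer passed once GC and length trends were taken out (adjusted p = 0.0825).

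Of genes of HIF subunits and oxygen sensing, 4 of 6 tested rose and 2 fell, against 34.1% raised and 33.7% lowered over all genes. SIAH2, a ubiquitin ligase that acts on prolyl hydroxylases, rose by 0.75 on the log2 scale (SE 0.05), OS9 by 0.54 (SE 0.04) and SIAH1 by 0.42 (SE 0.06). The other gene called higher, ARNT2, had few reads, with 7, 5 and 8 counts untreated and 16, 16 and 13 with monensin. With the stricter filter, and with DESeq2, the number called higher was 3. ARNT, the constant partner of HIF1A, fell from 89.0 ± 5.97 to 76.7 ± 1.92 CPM, a call lost under total counts (adjusted p = 0.0511). HIF1AN, the asparagine hydroxylase that restrains HIF, was the other gene called lower (log2 fold change -0.14, SE 0.05, adjusted p = 0.0174). HIF1AN did not pass after scaling to total counts (adjusted p = 0.357) or after the removal of GC and length trends (0.446), nor when untreated library 3 (0.0573) or monensin library 2 (0.0737) was left out. Of HIF targets outside glycolysis, 11 of 15 tested rose and 4 fell, with a median of 0.54, against 34.1% raised over all genes. The largest were DDIT4, an inhibitor of mTORC1 (21.0 ± 2.38 to 240 ± 9.93 CPM), BHLHE40, a transcriptional repressor (7.12 ± 0.861 to 64.4 ± 3.32 CPM), and the angiogenic factor gene VEGFA (log2 fold change 2.79, SE 0.06), all of which are also induced by stresses other than low oxygen. The others called higher were P4HA2 (log2 fold change 1.34), KDM4B (0.77), PPFIA4 (0.68), KDM3A (0.58), NDRG1 (0.54), VLDLR (0.43), PLOD1 (0.42) and MXI1 (0.15, adjusted p = 0.0311). PLOD2, a collagen lysyl hydroxylase, fell from 5.88 ± 0.630 to 2.13 ± 0.170 CPM, and ERO1A, HILPDA and FAM162A were the others called lower. The groups of HILPDA overlapped, and its call (adjusted p = 0.0251) did not hold after scaling to total counts (adjusted p = 0.126), nor when untreated library 2 (0.0602), monensin library 1 (0.0776) or monensin library 2 (0.128) was left out. CA9, the carbonic anhydrase often used as a HIF marker, had 0 counts in every library.

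**Figure D4:**
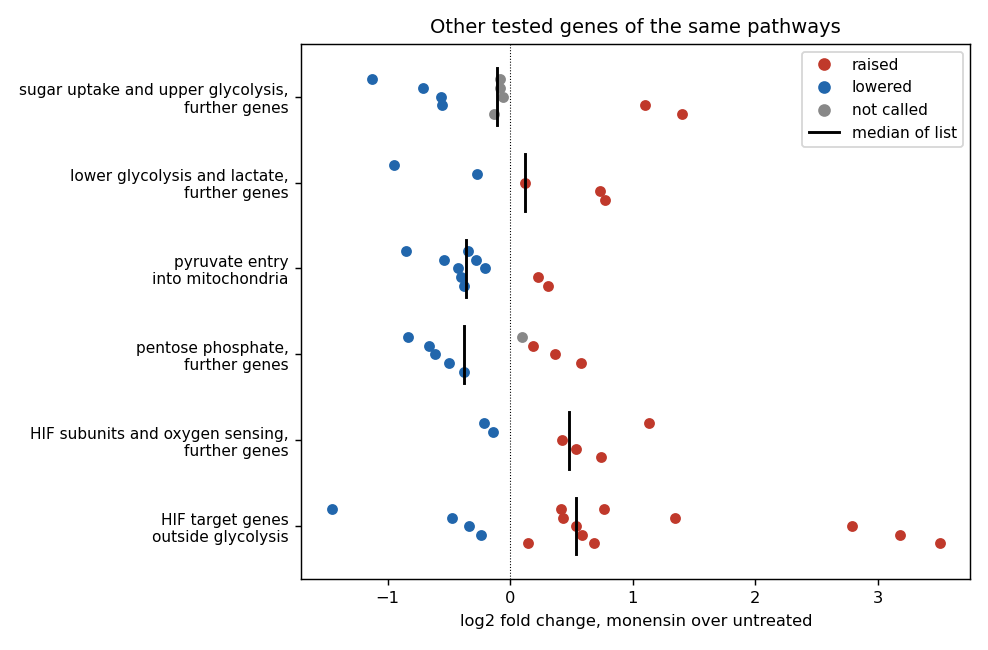
Log2 fold change, monensin over untreated, of the tested genes on 6 lists of the same pathways (each point a gene; red raised, blue lowered, grey not called; vertical bars, list medians). The pyruvate entry list lies mostly below 0, with a median of -0.36, and the HIF target list mostly above, with a median of 0.54 and DDIT4, BHLHE40 and VEGFA as its 3 highest genes.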

How the data were processed

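Per the labels' protocols, RNA isolated with Trizol was made into directional NEBNext libraries and sequenced on a NextSeq. The authors deposited unnormalized HTSeq counts, one file per library. The submitters' processing notes name bcl2fastq, Trimmomatic 038, HISAT2 2.1.0, then HTSeq 0.11.1, with DESeq2 1.22.2, and the build hg38 (GRCh38). Neither the annotation release nor the strand setting of the counting is given in the sources used here. The deposited list of regulated genes gives the authors' log2 fold change alone. The 5 tally lines of each file, 19.3% ± 0.388 (untreated) and 21.6% ± 0.398 (monensin) of tallied alignments, were left out.

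The whole table was tested with edgeR 4.0.16 (R 4.3.3), using the quasi-likelihood F test, filterByExpr and TMM scaling, treatment as the only term and Benjamini-Hochberg adjustment over 16542 genes. Standard errors are the coefficient divided by the root of F. CPM use TMM-adjusted library sizes. Levels per kilobase use the merged exons of GENCODE 29 (58275 of 58395 genes matched). All members were named. Each related list gave up to 4 names, the largest called changes above a log2 CPM of 2. Others named from those lists were chosen after their values were seen. These were MPC1, PDP2, RPIA, RPE, PGLS, H6PD, ARNT2, HIF1AN, BSG, ERO1A, HILPDA, FAM162A, CA9, P4HA2, KDM4B, PPFIA4, KDM3A, NDRG1, VLDLR, PLOD1 and MXI1. Members and lists were chosen with earlier results of these data known.

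Alternatives were RLE factors, total counts, filtering on counts above 0 alone, filtering at 1 CPM in 3 libraries with 50 counts in all, the replicate block, DESeq2 1.42.0, each library left out, an adjusted p under 0.01, GC content and length trends removed (mgcv 1.9.3), and no mitochondrial genes. The count tests were tested on simulated data. The labels do not say whether replicates were separate cultures, so p-values reflect sample-to-sample spread that may be technical. No replicate pair was identical (chi-square per degree of freedom 1.93 to 5.09). One marker list is not reported here.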

Additional observations from a re-analysis of the deposited data

How the results depend on the processing

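Over 15 alternatives, raised members numbered between 12 and 17 (15 as reported) and lowered members between 14 and 17 (16 as reported). Leaving out the 2 ALDOA rows, a choice made after seeing the data, gave 14 raised and 16 lowered. Of the 31 called rows, 24 kept their direction and call under all 15; the exceptions were HK1, HK3, ALDOA ENSG00000149925, GAPDH, SLC16A3, TALDO1 and HIF1A, whose values stand with the results. With GC content and length trends removed, GAPDH (-0.0814), SLC16A3 (-0.0580) and TALDO1 (-0.0471) turned in direction on the log2 scale; the cause was not tested. Members near 0 also changed sign without a call: under total counts, which moved the median log2 fold change of all genes from 0.02 to 0.11, HK2 was at 0.0570, PKM at 0.0212 and LDHB at 0.0668; EGLN1 was at -0.00607 with RLE factors, -0.00605 with DESeq2 and -0.0178 with no filter. With a library left out, EGLN1 ran from -0.0256 to 0.0432, HK2 from -0.0689 to 0.0286 and P4HA1 from -0.00611 to 0.0558. Of the further genes called, BSG was at -0.0952 after GC and length trends were taken out. The 15 pair ratios kept their direction with each library left out. Using counts not divided by exonic length could not change these differences, because length cancels from them. Deviations of same-numbered libraries from their group means correlated at -0.12, 0.14 and 0.04, and those of differently numbered libraries at -0.20 to 0.16. With 3 libraries per group, these values cannot settle whether same-numbered libraries were paired. With the replicate block 13 members were raised and 16 lowered, and GAPDH (adjusted p = 0.0536) and SLC16A3 (adjusted p = 0.0808) lost their calls. Depth limits PDK4, ANKRD37 and the ALDOA row ENSG00000285043, which held at most 60 counts in a library.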
